A study of Mus musculus with 4 samples.

Results

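The *Hand1*+ *Ahnak*+ cells described here are 93 of the 3494 cells of the early headfold (EHF) library, 2.66% of it (95% interval 2.15 to 3.25). They were selected on their measured counts. A cell belonged with at least 2 unique molecular identifiers (UMIs, each 1 captured transcript) of *Hand1*, at least 1 UMI of *Ahnak*, and no UMI of *Pitx1*, *Tbx4*, *Tnnt2* and *Elf5*. The levels of these 6 genes in the cells are therefore a description and no finding, and every other EHF cell served as the comparison. The cells had been proposed as a *Hand1* *Ahnak* mesenchyme. The data fit that label in part. Of the 93 cells, 26 lay in a cluster that carried the mesenchyme markers. Another 20 lay in clusters that scored highest for trophoblast and 17 in a surface ectoderm-like cluster. The cells are therefore called by their rule in what follows.

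Hand1 is a basic helix-loop-helix transcription factor of the lateral and extraembryonic mesoderm, and it is also needed in the trophoblast. Ahnak is a very large scaffold protein that sits under the plasma membrane with the annexin A2 and S100A10 complex. At headfold stages the mesoderm outside the embryo lines the amnion, chorion and yolk sac and forms the allantois, and BMP4, hedgehog signals and the factor Foxf1 are known to act in it.

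The EHF embryos were E7+14h mouse embryos of the genotype *T*nEGP-CreERT2/+; *R26R*tdTomato/tdTomato, whose dams had received 0.08 mg/bw tamoxifen by gavage at E7+7h. Cre is expressed from the *T* locus of the primitive streak, so tdTomato marks recombined *T*-expressing cells and their descendants. The 2 earlier libraries used for comparison had the same genotype and dose, OB-EB at E7+3h after tamoxifen at E6+21h and MS-LS at E6+21h after tamoxifen at E6+5h. Embryos of a stage were pooled into 1 library without sorting, and the cells were not assigned to embryos. Each stage is thus 1 sample, no test was made, and all intervals cover counting error only.

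The 93 cells held 686608 UMIs, with 2917 to 15829 per cell and a median of 6585, against a median of 5562 in the 3401 other EHF cells. The median mitochondrial share was 1.16% in the former and 1.09% in the latter. A second EHF table held the same counts in every place and was not counted again. The EHF library shared 14 cell barcodes with OB-EB and 12 with MS-LS, and none of the 93 cells carried a shared one. Among the 93 cells, 9 were in the 172 cells with the highest Scrublet doublet scores, which is 9.68% of them against 4.92% of the library.

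The rule was met in steps. *Hand1* (GRCm38 chromosome 11, 57828705 to 57832818, minus strand) had at least 2 UMIs in 562 cells, and 221 of these held a UMI of *Ahnak* (chromosome 19, 8989284 to 9076914, plus strand). The 4 genes required to be absent removed 128 of the 221 cells. *Elf5*, a trophoblast transcription factor, was found in 61 of the 221, *Pitx1*, a homeobox gene of the allantois and hindlimb, in 40, and the heart troponin *Tnnt2* in 36. *Tbx4*, which marks the allantois, was found in 0 of the 221 and so removed no cell. As a share of the library, the exact interval of that count reaches 0.106%. *Tbx4* was rare throughout, with 8 UMIs in the other EHF cells and a UMI in 0.206% of them. Its absence therefore says little about allantois cells. *Hand1* ran from 2 to 12 UMIs in a member with a median of 4, and *Ahnak* from 1 to 7 with a median of 1. At the edge of the rule, 23 members held exactly 2 *Hand1* UMIs and 53 held exactly 1 *Ahnak* UMI, while 32 cells just outside it held 1 *Hand1* UMI and 188 held no *Ahnak*. Most members were thus 1 *Ahnak* molecule away from being left out.

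Counts of *Hand1* and *Ahnak* were also found in cells of another kind, and their source was not tested. In a neuroectoderm-like cluster of 188 cells, led by *Six3*, *Hesx1* and *Otx2*, 2.66% of cells had at least 2 *Hand1* UMIs and 1.06% had an *Ahnak* UMI, and 1 of them was a member. The same shares were 79.8% and 86.5% in the cluster that held most of the members, at median depths of 7055 and 6022.5 UMIs.

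To see where the cells lay, all EHF cells were clustered with the 6 genes of the rule held out, and clusters were named only from fixed marker lists. The members fell into 12 of 30 clusters, and 4 groups held all but 17 of them. Cluster 18 held 26 members among its 104 cells. It was mesenchyme-like, with *Foxf1*, *Bmp4*, *Pmp22*, *Msx2*, *Hand2*, *Tbx20* and *Vim* detected, and it was led by *Tdo2*, *Tagln*, *Acta2*, *Pmp22* and *Snai2*. Cluster 15, extraembryonic mesoderm-like and led by *Hoxc8*, *Hoxd9* and *Hoxb6*, held 13. Cluster 16, led by *Tfap2a*, *Gap43* and *Wnt6* and surface ectoderm-like, held 17. Clusters 1, 5 and 10, which scored highest on the trophoblast list, held 15, 3 and 2 members. The remaining 17 members were spread over 6 clusters. Of these members, 6 lay in an allantois-like cluster led by *Mesp1* and *Cdx4*, and 5 in a cardiac-like cluster led by *Sfrp5*, *Gata5* and *Mef2c*. The allantois-like cluster scored 1.13 on the allantois list and 1.07 on the extraembryonic mesoderm list, so its name rests on a small margin.

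**Figure D1:**
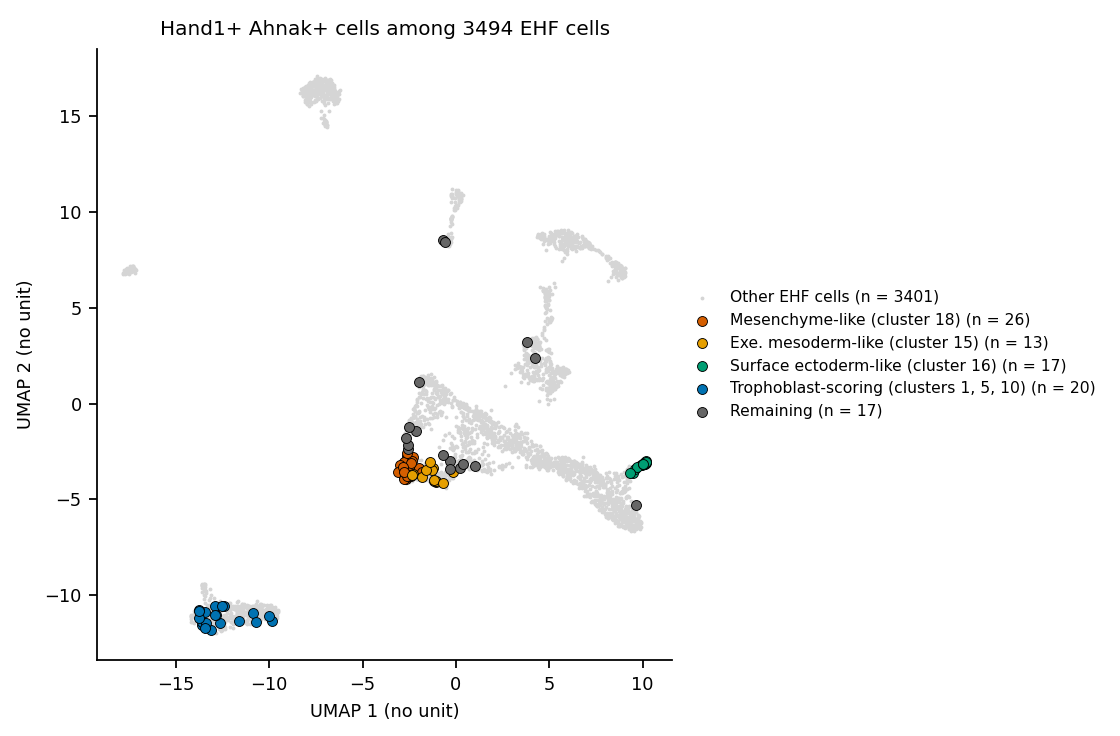
UMAP of the 3494 EHF cells, with the 93 *Hand1*+ *Ahnak*+ cells coloured by cluster group and the 3401 other cells in grey; the axes have no unit. The 26 mesenchyme-like and 13 extraembryonic mesoderm-like members lie next to each other, and the 20 trophoblast-scoring and 17 surface ectoderm-like members lie apart from them.

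The rule took only a part of the mesenchyme-like cluster. Of its 104 cells, 73 carried at least 2 *Hand1* UMIs and an *Ahnak* UMI, and 26 remained once the 4 genes were asked to be absent. *Tnnt2* was found in 30 of the 73 and *Pitx1* in 24. In the extraembryonic mesoderm-like cluster, 31 cells carried both genes. *Pitx1* was found in 16 of these and *Tnnt2* in 3, and 13 remained. In the surface ectoderm-like cluster, by contrast, all 17 cells with both genes remained. Among the cells of clusters 1, 5 and 10 with both genes, an *Elf5* UMI removed 19 of 34, 24 of 27 and 16 of 18.

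The 26 members of the mesenchyme-like cluster resembled the 78 cells of it that did not meet the rule in several of the genes described below. *Mest* was at 2157 CPM in the former and 2178.7 in the latter, a log2 ratio of −0.01 (−0.17 to 0.14). The ratio was 0.16 (−0.39 to 0.69) for *Foxf1*, −0.11 (−0.49 to 0.25) for *Vim* and 0.08 (−0.28 to 0.43) for *Stard8*, with every interval including 0. *Acta2* and *Tagln* were lower in the 26 members, at 125 against 232 CPM and 67.3 against 132 CPM. *Bmp4* and *Bmp5* were higher in them, at 279 against 153 CPM and 120 against 50.5 CPM.

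The markers were also counted in each cell, as a description, since the clusters were formed on these genes and named from the same lists. At least 3 of 10 mesenchyme markers other than *Hand1* and *Ahnak* were found in 56 of the 93 members, and at least 3 of 12 trophoblast markers other than *Elf5* in 29. For the other EHF cells, shares are given at a limit of 2 markers. At least 2 mesenchyme markers were found in 67 of the 93 members and in 19.7% of the other cells. At least 2 trophoblast markers were found in 42 of the 93 members and in 30% of the other cells. Median depth was 6585 UMIs in the members and 5562 in the other cells, and its part in these shares was not tested. All 26 members of the mesenchyme-like cluster reached 3 mesenchyme markers. None of the 20 trophoblast-scoring members did, with 0 to 2 per cell, while each of them held 3 to 7 trophoblast markers. Only 6 members held 3 of each list, and 14 held 3 of neither. *Postn*, a matrix gene on the mesenchyme list, had 0 UMIs in the members and 4 in all other cells.

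Among genes found in at least 25% of the members, *Pmp22*, which encodes a peripheral myelin membrane protein, had the largest ratio to the other cells. It stood at 411 CPM (counts per 1000000 UMIs; 95% interval 364 to 462) against 48.0 in the other EHF cells, a log2 ratio of 3.10 (2.90 to 3.29). Its UMIs ran from 0 to 19 in a member with a median of 1, and 55 of 93 members held it. These 55 cells were unevenly placed. *Pmp22* was found in 26 of 26 mesenchyme-like members at 870 CPM (747 to 1005.8), in 15 of 17 surface ectoderm-like members at 663 CPM (518 to 834), in 8 of 13 extraembryonic mesoderm-like members at 161 CPM (90.3 to 266) and in 0 of 20 trophoblast-scoring members. The 78 cells of the mesenchyme-like cluster that did not meet the rule were at 899 CPM (log2 ratio −0.05, −0.30 to 0.20). The 495 other cells of the trophoblast-scoring clusters held *Pmp22* in 2.42% of cells, at a median depth of 6877 UMIs.

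Of 9444 genes with at least 100 UMIs over members and other cells, 362 (3.83%) were at least 2-fold higher in the members and 708 (7.50%) at least 2-fold lower, and the median log2 ratio was −0.01. A gene at the minimum was expected to give 3.37 UMIs in the members. Since the members were chosen in the same cells, these shares are given as the background for the counts below and carry no test. The 15 highest genes by that rule were *Pmp22*, *Acta2*, *Stard8*, *Nuak1*, *Unc5c*, *Nrp1*, *St3gal5*, *Arhgap29*, *Cobll1*, *Rgs5*, *Dok4*, *Mest*, *Foxf1*, *Anxa2* and *Bmp4*. Their log2 ratios ran from 2.02 to 3.10. *Stard8* and *Arhgap29* encode GTPase-activating proteins, at 202 CPM (170 to 239) and 100 CPM (78.2 to 127) in the members against 32.9 and 19.5 in the other cells. *Unc5c*, a netrin receptor, was at 75.7 CPM (56.6 to 99.3) against 13.7. *Nrp1*, a receptor for semaphorins and VEGF, was at 65.5 CPM (47.8 to 87.7) against 12.4.

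**Figure D2:**
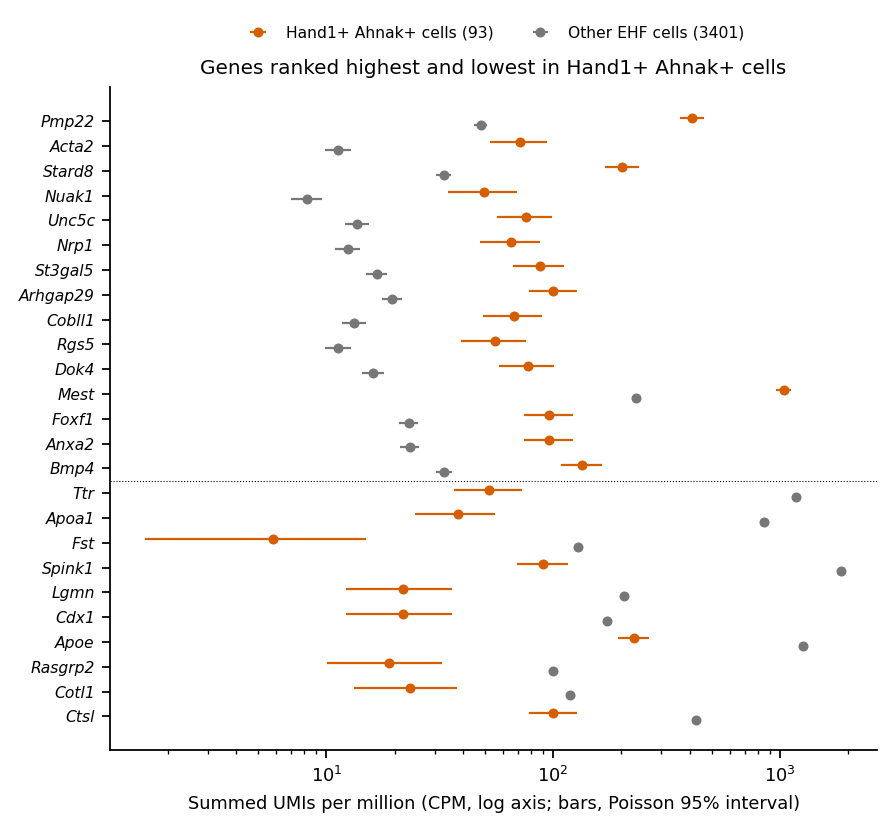
CPM of summed UMIs (log axis) in the 93 *Hand1*+ *Ahnak*+ cells and in the 3401 other EHF cells for the 15 genes ranked highest and the 10 ranked lowest; bars are exact Poisson 95% intervals. *Pmp22* heads the upper genes with 411 against 48.0 CPM, and *Ttr* heads the lower genes with 52.4 against 1175.3 CPM.

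The contractile genes divided the members further. Of the 17 measured genes of actin and the contractile apparatus, 4 were at least 2-fold higher and 0 lower, with a median of 0.76. *Acta2* (chromosome 19, 34241090 to 34255590), the smooth muscle actin, was at 71.4 CPM (52.8 to 94.3) against 11.3, and its UMIs ran from 0 to 8 in a member. It was found in 14 of 26 mesenchyme-like, 6 of 13 extraembryonic mesoderm-like, 1 of 17 surface ectoderm-like and 0 of 20 trophoblast-scoring members. *Tagln*, an actin cross-linking protein of smooth muscle, was at 35.0 CPM (22.4 to 52.0) against 6.40. It was shared otherwise, with 10 of 26, 0 of 13, 5 of 17 and 0 of 20 members in the same order. *Tpm1*, a tropomyosin, was at 625 CPM (567 to 687) against 187. It reached 1905 CPM (1654.3 to 2182.9) in the surface ectoderm-like members and 600 CPM (500 to 715) in the mesenchyme-like ones, and was among the genes that led that surface ectoderm-like cluster. *Cnn2*, a calponin, was at 291 CPM (252 to 335) against 88.8, and *Actb*, the general cytoplasmic actin, at 1584.6 against 1307.0 CPM. With the 20 trophoblast-scoring members left out, 9 of the 17 genes were at least 2-fold higher and the median was 1.02. Over all genes, 515 of 9424 were at least 2-fold higher in that comparison.

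The promoter windows of *Acta2* and *Cnn2*, which were past 2-fold over all members, are shown as examples without and with a full CArG box, from 250 bases before to 50 after the start of transcription (RefSeq, GRCm38.p6). The CArG box, searched as CCWWWWWWGG with W for A or T, is the motif known to be bound by serum response factor. A full match is in capitals, and the motif was searched on both strands. The *Acta2* window lies at chr19:34255324-34255623 on the minus strand, and the *Cnn2* window at chr10:79988350-79988649 on the plus strand.
Acta2: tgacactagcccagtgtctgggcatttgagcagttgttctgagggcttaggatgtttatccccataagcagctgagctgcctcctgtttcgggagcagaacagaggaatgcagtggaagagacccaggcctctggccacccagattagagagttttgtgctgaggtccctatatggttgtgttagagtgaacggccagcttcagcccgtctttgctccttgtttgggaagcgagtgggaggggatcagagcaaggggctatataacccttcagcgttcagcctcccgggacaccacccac
Cnn2: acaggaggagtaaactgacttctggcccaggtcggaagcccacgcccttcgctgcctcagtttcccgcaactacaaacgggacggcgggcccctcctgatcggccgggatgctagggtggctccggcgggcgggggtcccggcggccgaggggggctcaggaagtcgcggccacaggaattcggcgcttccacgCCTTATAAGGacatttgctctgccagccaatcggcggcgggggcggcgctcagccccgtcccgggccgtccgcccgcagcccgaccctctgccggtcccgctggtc

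The *Cnn2* window held 1 full match, starting 56 bases before the start of transcription, and the *Acta2* window held no full match. No mismatch was allowed, so near matches were not counted. The *Acta2* window holds ccctatatgg and ccttgtttgg, each off in 1 letter, and the absence of a full match does not show that it lacks such an element. *Tpm1* had a window without a full match and *Tagln* had no entry. Of the 16 genes of the actin list with a window, 4 held a full match, namely *Actg1*, *Cnn2*, *Myl9* and *Vcl*, and 1.81% of the 27025 genes with a window did. A match is a description of the letters only, and of these 4 genes *Cnn2* alone was past 2-fold in the members, with *Myl9* just short of it.

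The markers of mesenchyme and extraembryonic mesoderm were high in the members as a list. Of 9 measured mesenchyme genes outside the rule, 8 were at least 2-fold higher and 0 lower, with a median of 1.95, and of 7 extraembryonic mesoderm genes 7 were, with a median of 1.93. The lists share *Foxf1*, *Bmp4* and *Msx2*, and *Wnt2* on the second had 8 UMIs in the members and an interval of −0.02 to 2.26. *Foxf1*, a forkhead factor of the splanchnic and extraembryonic mesoderm, was at 96.1 CPM (74.3 to 122) against 23.1. *Vim*, the intermediate filament of mesenchymal cells, was at 252 CPM (216 to 292) against 84.5, and *Msx2*, a homeobox gene downstream of BMP, at 80.1 CPM (60.3 to 104) against 20.8. *Pdgfra*, the PDGF receptor that marks much of the mesoderm, was the exception at 24.8 CPM (14.4 to 39.6) against 30.4. The lateral plate list had 6 of 10 genes past 2-fold, namely *Foxf1*, *Hand2*, *Gata6*, *Tbx20*, *Wnt2* and *Bmp4*. Of these, *Gata6* alone is on neither of the lists above, so this count largely repeats them. *Gata4*, *Isl1*, *Prrx1* and *Prrx2* had log2 ratios between −0.03 and 0.39. *Foxf1* was found in 35 of the 93 members. It was in 20 of 26 mesenchyme-like and 7 of 13 extraembryonic mesoderm-like members and in 0 of 17 surface ectoderm-like and 0 of 20 trophoblast-scoring ones.

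**Figure D3:**
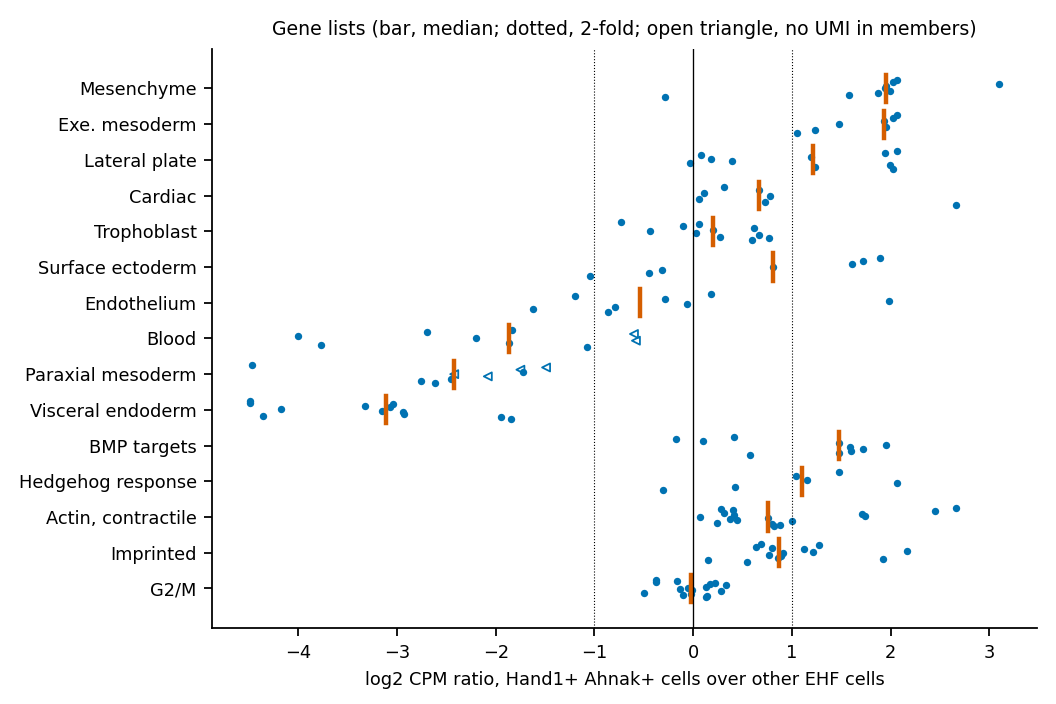
The log2 CPM ratio of *Hand1*+ *Ahnak*+ over other EHF cells for each measured gene of 15 lists (blue points), with the list median (orange bar) and 2-fold (dotted lines); open triangles are genes with no UMI in the members, drawn at the limit that 3 UMIs allow. The medians run from 1.95 for mesenchyme to −3.11 for visceral endoderm.

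BMP and hedgehog genes were high in the same cells. *Bmp4* (chromosome 14, 46383520 to 46390669), the ligand, was at 134 CPM (108 to 164) against 33.1, and *Bmp5* at 43.7 CPM (29.5 to 62.4) against 6.50, so 2 of 6 measured ligands were past 2-fold. *Bmp4* was found in 19 of 26 mesenchyme-like and 9 of 13 extraembryonic mesoderm-like members, and in 2 of 17 surface ectoderm-like and 2 of 20 trophoblast-scoring ones. *Bmp5* was found in 18 of the 26 and in 5 further members. Of 10 BMP target and feedback genes, 6 were at least 2-fold higher and 0 lower, namely *Msx1*, *Msx2*, *Smad6*, *Smad7*, *Bambi* and *Tbx3*. The inhibitor of differentiation genes stood apart from them, with log2 ratios of 0.41 for *Id1* (0.17 to 0.64), −0.17 for *Id2* (−0.36 to 0.02) and 0.10 for *Id3* (−0.07 to 0.28). The level of *Id2* came mostly from the trophoblast-scoring members, at 1112.9 CPM (955 to 1289) against 52.8 CPM (26.4 to 94.6) in the mesenchyme-like ones.

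In the hedgehog list, 4 of 6 measured genes were at least 2-fold higher and 0 lower, with a median of 1.10, and *Foxf1* was the fourth besides *Ptch1*, *Gli2* and *Gli3*. *Ptch1*, the receptor whose transcript is induced by the pathway, was at 112 CPM (88.5 to 140) against 40.1. The transcription factors *Gli2* and *Gli3* had log2 ratios of 1.04 (0.18 to 1.80) and 1.15 (0.69 to 1.59), and *Smo*, the signal transducer, 0.42 (−0.19 to 0.96). *Ptch1* was found in 21 of 26 mesenchyme-like members at 202 CPM (145 to 273), and in 2 of 17 surface ectoderm-like and 1 of 20 trophoblast-scoring members. The direct target *Gli1* had 4 UMIs in the members and 62 in the other cells and was under the minimum to enter.

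Among the Wnt genes, *Wnt2*, *Wnt5a* and *Wnt6* of 10 were at least 2-fold higher and 5 were lower. *Wnt6* was at 87.4 CPM (66.7 to 112) against 23.6. It was placed in other groups than most *Bmp4*. A *Wnt6* UMI was in 15 of 17 surface ectoderm-like, 11 of 20 trophoblast-scoring, 0 of 26 mesenchyme-like and 0 of 13 extraembryonic mesoderm-like members. Overlap of these genes in single cells was not counted. *Wnt5a*, at 27.7 CPM (16.7 to 43.2) against 13.4, was placed differently, with 7 of 26 and 4 of 13 members in the mesoderm-like groups and 0 in the other two groups. The secreted antagonists *Sfrp1* and *Frzb* were low in the members, with log2 ratios of −2.84 (−5.12 to −1.29) and −3.02 (−4.90 to −1.66).

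Keratins were widely shared among the members. *Krt8* was at 858 CPM (790 to 930) against 260 and *Krt18* at 1267.1 CPM (1184.3 to 1354.2) against 415. These simple-epithelium keratins were found in 88 and 90 of the 93 members, with 0 to 28 and 0 to 49 UMIs per cell. *Krt8* reached 1234.6 CPM (1088.3 to 1395.1) in the mesenchyme-like members, 1131.9 CPM (941 to 1350.6) in the surface ectoderm-like and 1128.8 CPM (923 to 1366.5) in the extraembryonic mesoderm-like ones, levels whose intervals overlap, and 288 CPM (211 to 384) in the trophoblast-scoring ones. Of the 12 measured epithelial genes, *Dsp*, a desmosome protein, was the third past 2-fold, at 102 against 40.4 CPM and in 51.6% of members against 18.7% of other cells, and 1 gene was lower. *Cdh1*, the epithelial cadherin, was in 14 of 20 trophoblast-scoring and 1 of 26 mesenchyme-like members, and *Epcam* in 14 of 20 and 3 of 26. Of the genes of the epithelial to mesenchymal transition, *Snai2*, *Zeb1*, *Vim* and *Cdh11* were past 2-fold among 12, and *Snai2*, a zinc finger repressor, had a log2 ratio of 2.84 (2.08 to 3.55) on 21 UMIs.

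Annexin and S100 genes were examined because Ahnak binds annexin A2 and S100A10. Of 12 measured members, *Anxa2* and *Anxa6* were at least 2-fold higher and *S100a16* was lower, with 0 UMIs in the members. *Anxa2* was at 96.1 CPM (74.3 to 122) against 23.3 and was found in 39 of 93 members, with 16 of 26 mesenchyme-like, 9 of 17 surface ectoderm-like and 9 of 20 trophoblast-scoring ones. *S100a10* was at 318 against 193 CPM, a log2 ratio of 0.72 (0.51 to 0.92).

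Imprinted genes formed another high list. Of 14 measured, *Igf2*, *Peg10*, *Mest*, *Dlk1* and *Plagl1* were at least 2-fold higher and 0 were lower, with a median of 0.87. *Mest*, a hydrolase-like protein made from the paternal allele in mesoderm, was at 1037.0 CPM (962 to 1116) against 232. It ran from 0 to 45 UMIs in a member with a median of 4. Its level was 2157 CPM (1962 to 2366) in the mesenchyme-like, 1343.9 CPM (1118.6 to 1601.1) in the extraembryonic mesoderm-like and 525 CPM (397 to 680) in the surface ectoderm-like members, and it had 2 UMIs in the 20 trophoblast-scoring ones. *H19*, an imprinted non-coding RNA of the *Igf2* locus, was found in 89 of 93 members at 1345.7 CPM against 833, at 1306.8 CPM (1135.6 to 1496.4) in the trophoblast-scoring members and 1357.6 CPM (1259.9 to 1460.8) in the rest. The growth factor *Igf2* was in 20 of 26 mesenchyme-like, 9 of 13 extraembryonic mesoderm-like, 13 of 20 trophoblast-scoring and 3 of 17 surface ectoderm-like members.

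**Figure D4:**
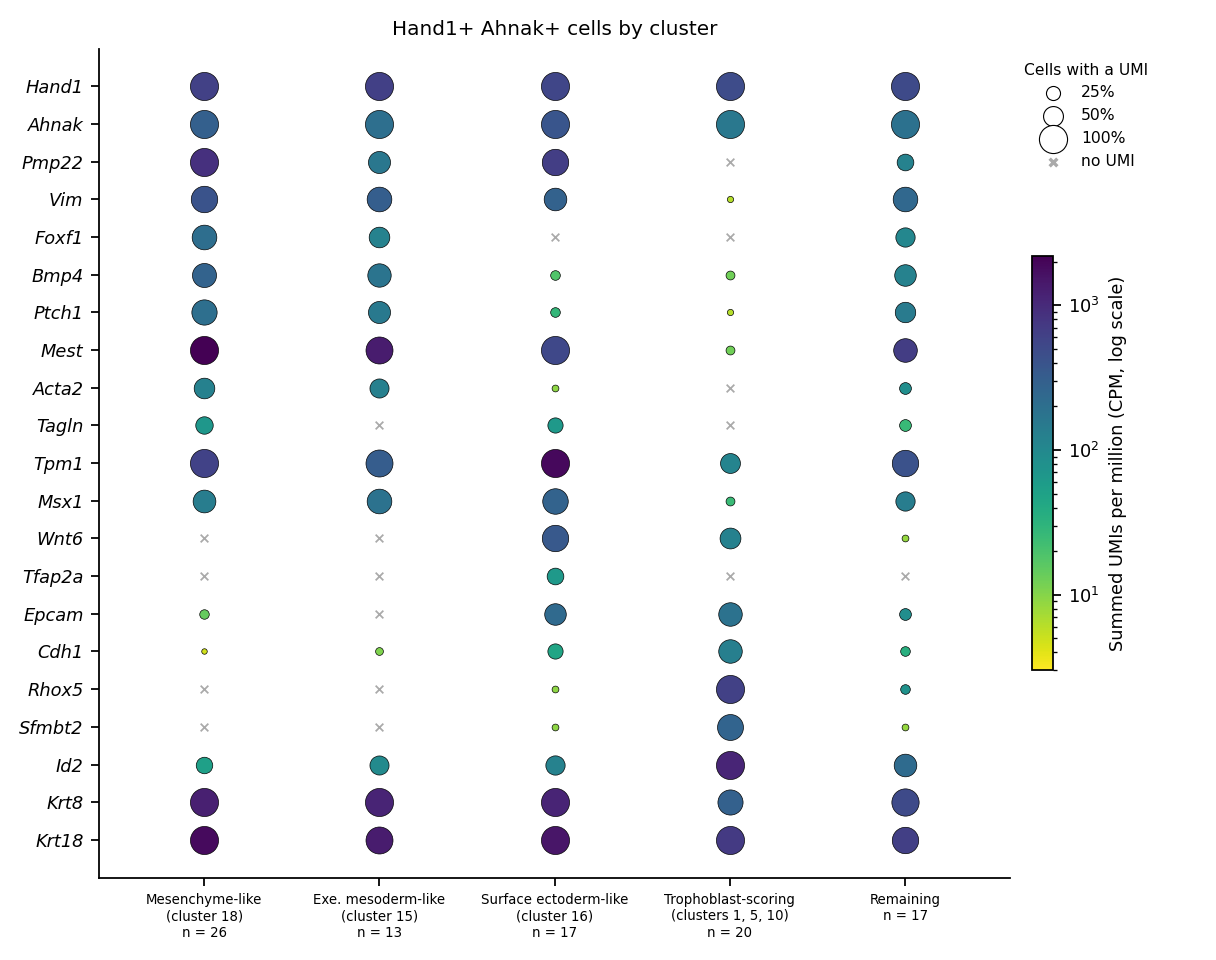
The 21 genes shown in rows by group of *Hand1*+ *Ahnak*+ cells in columns; colour is CPM of summed UMIs on a log scale, size is the percent of cells with a UMI, and a cross marks no UMI. *Krt8* and *Krt18* are present in every group, whereas *Foxf1*, *Wnt6* and *Rhox5* are each limited to some of them.

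Markers of visceral endoderm, paraxial mesoderm and blood were low in the members. All 12 visceral endoderm genes were at least 2-fold lower in the members, with a median of −3.11, as were 9 of 9 paraxial mesoderm genes and 7 of 9 blood genes. *Ttr*, the transthyretin of visceral endoderm, was at 52.4 CPM (36.7 to 72.6) against 1175.3, and *Spink1* at 90.3 against 1858.1. Yet 30.1% of members had a *Ttr* UMI, with at most 4 in a cell, against 34.1% of other cells. The somite factor *Tcf15* had 1 UMI in the members, and *Meox1* and *Foxc1* had 0, so with 3 UMIs over the members as the limit their log2 ratios are at most −1.49 and −1.75. *Hbb-bh1*, an embryonic globin, had 11 UMIs in the members and 5050 in the other cells. The G1/S and G2/M lists had 0 of 16 genes past 2-fold in either direction, with medians of −0.14 and −0.02.

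The remaining lists are given by their counts over all members. The cardiac list had 1 of 7 genes past 2-fold, *Acta2*, and a median of 0.67, and the allantois list had 3 of 7 higher and 1 lower. Of 8 endothelial genes 1 was higher and 2 were lower, and of 10 parietal endoderm genes 5 were lower. Of the neuroectoderm, primitive streak and notochord lists, 6 of 9, 6 of 9 and 3 of 6 genes were lower, and 1 notochord gene, *Krt8*, was higher. The surface ectoderm list had 3 of 7 higher, namely *Wnt6*, *Krt8* and *Krt18*. Among signal receptors *Pdgfrb* and *Flt1* were past 2-fold of 13, among Hippo pathway genes *Lats2* and *Tead1* of 7, among integrins and adhesion genes *Itga3*, *Itga5* and *Cdh11* of 10. Among 8 Hox genes *Hoxb6* was higher and 2 were lower. Collagen genes were seldom counted, with 4 of 11 entering, and *Col1a2* higher and *Col4a1* lower among them.

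The trophoblast list gave a mixed reading over all members. Of its 11 measured genes, 0 were past 2-fold in either direction and the median was 0.20, with a summed level of 619 CPM against 605. The members of the list were unevenly placed. *Rhox5*, an X-linked homeobox gene of the trophoblast, was found in 20 of 20 trophoblast-scoring members at 613 CPM (497 to 747), in 0 of 26 mesenchyme-like and 0 of 13 extraembryonic mesoderm-like members, and in 1 of 17 surface ectoderm-like ones. *Sfmbt2*, an imprinted polycomb gene needed for trophoblast, was at 269 CPM (195 to 362) in those 20 cells. Their clusters were picked by this list, so a lower level without them was fixed by that choice. Without them, 8 of the 11 genes were at least 2-fold lower in the members and the median was −1.59. The mesenchyme median was then 2.32, with the same 8 of 9 genes higher. Over all genes in that comparison, 956 of 9424 were at least 2-fold lower and 515 at least 2-fold higher. Of 9 measured dissociation response genes, *Fos* and *Jun* were at least 2-fold higher in the members and 0 were lower, with a median of 0.46. *Fos* and *Jun* stood at 197 CPM (165 to 233) against 59.3 and 64.1 CPM against 22.8. *Fos* was found in 12 of 26, 13 of 17, 6 of 13 and 14 of 20 members of the mesenchyme-like, surface ectoderm-like, extraembryonic mesoderm-like and trophoblast-scoring groups. The part of cell handling in these levels was not tested.

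The cells just outside the rule show what each condition set aside. The 188 cells with at least 2 *Hand1* UMIs and none of the other 5 genes differed from the members in some of the genes named above. Their clusters differed too, with at most 10 of them in the mesenchyme-like cluster, against 26 of the 93 members. The part of this cluster mix in the ratios below was not tested. Over the 281 cells that include both groups, the mesenchyme list median was 1.70, against 1.95 in the members alone. *Pmp22* was at 411 CPM in the members against 65.8 in these cells, a log2 ratio of 2.64 (2.29 to 3.01). *Acta2* stood at 71.4 against 9.40 CPM, a log2 ratio of 2.92 (1.99 to 3.97). *Cobll1* stood at 67.0 against 5.48 CPM, a log2 ratio of 3.61 (2.45 to 5.00). In the other direction, the nascent mesoderm factor *Mesp1* was at 18.9 against 90.8 CPM and the signal *Fgf8* at 7.28 against 39.9 CPM. The median depths were 6585 and 6445 UMIs, with ranges of 2917 to 15829 in the members and 1154 to 20851 in these cells.

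The 40 cells removed for *Pitx1* carried more *Acta2* and *Dlk1* than the members. *Acta2* was at 195 CPM and *Dlk1* at 286 CPM in them, log2 ratios of members over these cells of −1.45 (−2.02 to −0.89) and −1.32 (−1.77 to −0.87). *Rhox5* had 1 UMI there against 108 in the members. Of these 40 cells, 24 lay in the mesenchyme-like cluster and 16 in the extraembryonic mesoderm-like one. The mesenchyme-like members alone were at 125 CPM for *Acta2* and 163 CPM for *Dlk1*. The part of this cluster mix in the values was not tested. In the 28 cells removed for *Tnnt2* without *Pitx1*, *Pmp22* was at 846 CPM and *Stard8* at 421 CPM. The log2 ratios of members over these cells were −1.04 (−1.30 to −0.79) and −1.06 (−1.42 to −0.69). The atrial light chain *Myl7* was at 377 CPM in them against 80.1 in the members. The 26 mesenchyme-like members alone were at 870 CPM for *Pmp22*, 456 CPM for *Stard8* and 135 CPM for *Myl7*. The part of the cluster mix in these ratios was not tested. The 60 cells removed for *Elf5* alone held 0 UMIs of *Foxf1* and of *Vim*, so with 3 UMIs over those 60 cells as the limit the log2 ratios are at least 4.02 and 5.41. *Rhox5* was at 944 CPM in these cells against 157 in the members.

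The same rule found 32 of 3994 cells in OB-EB, where *Tbx4* had no row in the table, and 12 of 3635 in MS-LS. These libraries took no part in choosing the EHF cells, but the rule there uses the same genes, and stage, library and depth cannot be told apart. The OB-EB cells had a median of 4916.5 UMIs. Of 7270 genes that entered there, 668 (9.19%) were at least 2-fold higher than in the other OB-EB cells. Of the 362 EHF genes, 174 entered in OB-EB and 90 were past 2-fold, which is 51.7% of those that entered and 13.5% of the 668. Of the 15 highest EHF genes, 9 entered in OB-EB and 8 were at least 2-fold higher, with *Nuak1* below at 0.91 (−0.73 to 2.16). *Pmp22* was at 159 against 15.7 CPM, *Foxf1* at 263 against 22.6, *Bmp4* at 153 against 15.8 and *Mest* at 466 against 70.4.

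**Figure D5:**
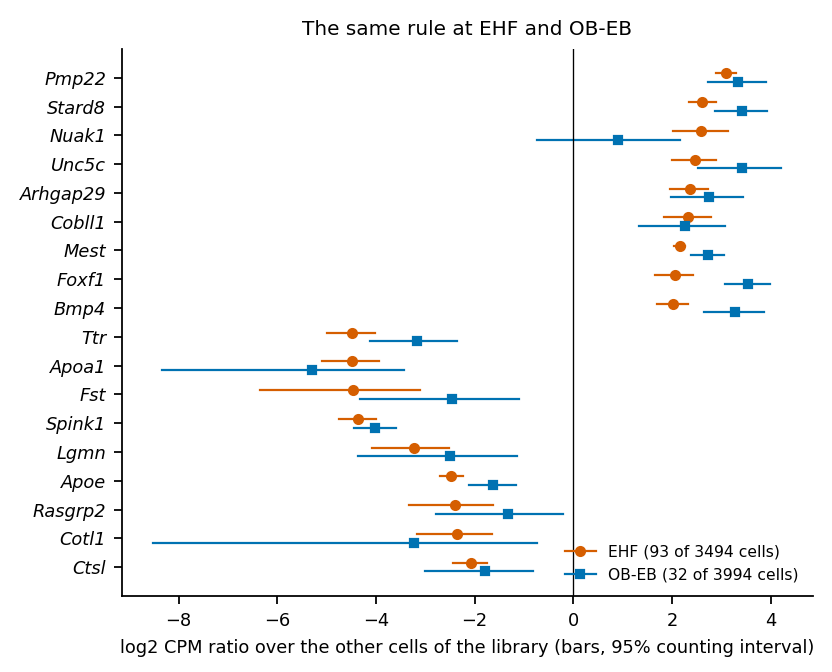
The log2 CPM ratio of cells meeting the rule over the other cells of the same library, at EHF (orange circles) and OB-EB (blue squares), for 18 of the 25 ranked genes, those with at least 100 UMIs in OB-EB and a UMI in its members; bars are 95% counting intervals. *Pmp22* is at 3.10 and 3.34, and the interval of *Nuak1* at OB-EB includes 0.

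*Acta2* and *Tagln* gave few UMIs in the earlier cells, whereas *Tpm1* was counted, at 307 CPM against 130 in OB-EB and 330 against 92.3 in MS-LS. *Acta2* had 1 UMI in the 32 OB-EB cells and 0 in the 12 MS-LS cells, against 49 in the 93 EHF cells, and 4 and 11 UMIs in the other cells of those libraries. *Tagln* had 1, 3 and 24 UMIs in the OB-EB, MS-LS and EHF cells, and the 3 UMIs in MS-LS amount to 35.3 CPM, as against 35.0 at EHF. The keratins were already present, with *Krt8* at 318 CPM against 68.8 in OB-EB and at 377 against 99.4 in MS-LS. The levels are set side by side and were not compared by a test, since each stage is 1 library.

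The tdTomato reporter marked few of the members. A log-normalised level above 1 was found in 3 of 93 members, 3.23% (0.670 to 9.14), against 273 of 3401 other cells, 8.03% (7.14 to 8.99). In cells with an *Elf5* UMI, a trophoblast marker outside the streak lineage, the share was 0.297% (0.00751 to 1.64) at a median depth of 7367 UMIs, and its interval overlaps that of the members. Among the 188 cells without *Ahnak*, 22 were above 1, 11.7% (7.48 to 17.2). With at least 1 UMI as the limit, the share was 6.45% (2.40 to 13.5) in the members and 11.7% (10.6 to 12.8) in the other cells, and after thinning each cell to 2000 UMIs it was 2.15% (0.262 to 7.55) and 5.11% (4.36 to 5.95), with 309 other cells left out. The thinned intervals overlap. Of the 6 members with a reporter UMI, 1 was mesenchyme-like, 1 extraembryonic mesoderm-like, 1 trophoblast-scoring and 3 were among the remaining 17.

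Female-called and male-called cells were both among the members. A cell was called female by a *Xist* UMI without a Y-linked one, and male by a Y-linked UMI without *Xist*. By these calls, 53 of 1870 female-called and 8 of 312 male-called cells were members, 2.83% and 2.56%. The other 1312 cells, 32 of them members, were not called. Of the 26 mesenchyme-like members, 16 were female-called and 2 male-called. In the female-called cells alone, the mesenchyme list median was 1.94. The calls do not give the number of embryos.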

How the data were processed

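The authors deposited 1 table of UMI counts per library, cells by barcode. Per the labels and methods, whole embryos were dissociated and captured with Chromium 3' chemistry, and reads were counted by the authors against an Ensembl annotation of GRCm38 to which the tdTomato vector had been added. Barcodes with few genes or UMIs or a high mitochondrial share had been removed before deposit. Gene positions given here are from GENCODE M21 on GRCm38, and promoter windows from RefSeq. The submitters' processing notes name Cell Ranger 3.0.2, R 3.6.1 and Seurat 3. The counts were used as deposited, with no further cell removed and doublets kept.

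UMIs were summed over the cells compared and divided by their total (CPM), with exact Poisson intervals. Ratios have exact conditional intervals and shares exact binomial (Clopper-Pearson) ones, all at 95%. With 1 library a stage no test was made, and past the threshold means a ratio of at least 2 or at most 0.5 among genes with at least 100 UMIs over both groups. A count of 0 was set to a limit of 3 UMIs. PCR duplicates were collapsed by UMI, and the intervals cover counting error only.

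Clusters of all EHF cells came from R 4.3.3 and its package Seurat 5.3.0 (scale factor 10000, 2000 variable genes without the rule's genes and vector features, 50 principal components, resolution 4.5). A cluster was scored on each list by the mean log2 ratio of its genes over all other cells (pseudocount 10 CPM). It was named from the highest list given at least 3 detected markers, in at least 20% of its cells and at least 2-fold higher. Its 10 leading genes could not hold more markers of another list, and at low depth had to hold 1 of its own. Cluster 10 did not meet the condition on leading genes and is described by its score alone. Doublet scores came from Scrublet in scanpy 1.11.5. Sums, ratios and plots were made with scipy 1.17.1, matplotlib 3.10.9, pandas 2.3.3 and numpy 2.4.6 under Python 3.11.15, and the ratio was checked on simulated counts.

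Genes named are those of the rule, of the lists, the 15 with the largest ratio among genes found in at least 25% of the members, and the 10 with the smallest among genes found in at least 25% of the other cells. Mitochondrial, ribosomal protein, sex-linked and vector genes were left out of that ranking. Genes that led a cluster are named as its description. The members and lists were chosen with earlier results of these data known. Alternatives changed the rule, the cells, the minimum UMIs, the fold and the scaling.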

Additional observations from a re-analysis of the deposited data

How the results depend on the processing

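No paired analysis was possible because each stage is 1 library. The number of members followed the rule, with 125 cells (3.58%) at 1 *Hand1* UMI, 70 (2.0%) at 3, 40 (1.14%) at 2 *Ahnak* UMIs, 281 (8.04%) with no *Ahnak* asked for, 221 (6.33%) without the 4 absent genes and 73 (2.10%) without the trophoblast-scoring members. Genes at least 2-fold higher numbered 643 at 2 *Ahnak* UMIs, 167 with no *Ahnak* asked for, 106 in male-called cells, 1777 at a minimum of 20 UMIs, 1971 at 1 UMI in each group and 52 at 500 UMIs. Genes at least 2-fold lower numbered 412 with no *Ahnak* asked for, 348 in male-called cells and 151 at 500 UMIs. At a fold of 1.5 the counts were 1150 higher and 1404 lower, and at a fold of 4 they were 32 and 208. The mesenchyme median was 2.98 in the 8 male-called members. The notochord median turned to 0.26 at 2 *Ahnak* UMIs, 1.59 in male-called cells, 0.21 at 20 UMIs and 0.22 at 1 UMI in each group, and the primitive streak median to 0.08 with no *Ahnak* asked for. These alternatives change the cells or genes that enter, and the cause of each shift was not tested. The trophoblast median was 1.02 with no *Ahnak* asked for and 0.96 without the 4 absent genes. Of the ranked genes' values, 306 stayed inside the counting interval of the reported log2 ratio, 69 left it, and 0 changed sign. In male-called cells *St3gal5*, *Arhgap29*, *Bmp4* and *Fst* fell short of 2-fold, as did *Cobll1* with no *Ahnak* asked for. Sums over few members limit low genes most.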
